A study of Mus musculus with 9 samples.

Results

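The tandem-pore domain potassium channels (K2P channels) were read out in the gastrocnemius, a calf muscle, of newborn mice with and without exon 11 of *Shank3*. The 10 genes described are the rows of the count table whose Ensembl identifiers belong to the symbols *Kcnk1*, *Kcnk2*, *Kcnk3*, *Kcnk4*, *Kcnk5*, *Kcnk6*, *Kcnk7*, *Kcnk12*, *Kcnk13* and *Kcnk18*, out of 55471 genes in all. They were chosen as a family around *Kcnk18*, a channel that the study picked from these same libraries, so the *Kcnk18* difference shown here is not independent evidence of its direction.

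RNA was sequenced from 5 *Shank3Δ11(-/-)* mice (KO1 to KO5) and 4 *Shank3(+/+)* mice (WT1 to WT4), 1 library per mouse, all labelled as C57BL/6 and taken at postnatal day 0 to 1. The *Shank3Δ11(-/-)* mice are homozygous for a germline deletion in *Shank3*, came from heterozygous C57BL/6JRj matings and lack the exon in every cell of the body, so muscle and its nerve supply are both affected. The study left out KO2 and KO4 for too few reads, and each genotype comparison of a channel is given for KO1, KO3 and KO5 against the 4 *Shank3(+/+)* mice and again with all 9 mice.

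K2P channels are leak channels: each subunit carries a pair of pore loops, subunits assemble as dimers, and the channels pass potassium at rest and so hold the membrane potential negative. They are grouped by how they are gated, with TWIK channels passing weak currents, TREK and TRAAK channels opened by membrane stretch and lipids, TASK channels controlled by extracellular pH, THIK channels blocked by halothane, and TRESK, the product of *Kcnk18*, opened when calcineurin removes phosphate after a rise in intracellular calcium. In adult skeletal muscle the resting conductance is known to be carried mostly by chloride channels and inward rectifier potassium channels.

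The libraries held 26444372 (KO5) to 40471957 (KO4) reads counted on genes, with a median of 31435732. KO4, one of the excluded mice, had the highest total of the 9. The muscle markers were present: 10 myofibre genes summed to between 54283 and 62088 CPM (reads on a gene scaled to the size of the library), while 9 genes of sensory and motor neurons summed to between 8.55 and 12.2 CPM and *Chat* was at 0 in every mouse. *Shank3* itself lay between 25.8 and 38.5 CPM, with a log2 fold change of -0.12 ± 0.11 (SE; FDR = 1.00 in edgeR) for 3 against 4 mice and -0.14 ± 0.11 for 5 against 4, and a count over the whole gene does not check the loss of 1 exon. Y-linked RNA was high in KO1, KO2, KO4, WT1 and WT2 and near 0 in KO3, KO5, WT3 and WT4. In RNA of whole muscle, fewer cells of a type and less RNA per cell cannot be told apart.

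Of the 10 channels, 8 were measurable and 2 were near 0. Levels of different genes are compared here per length, as TMM-scaled CPM divided by the exon length in kilobases (FPKM), averaged over the 9 mice. *Kcnk13* (2.16 ± 0.54 FPKM, SD, n = 9) and *Kcnk6* (2.11 ± 0.45) stood highest, followed by *Kcnk2* (1.68 ± 0.20) and *Kcnk1* (1.23 ± 0.40). *Kcnk3* (0.705 ± 0.25), *Kcnk5* (0.638 ± 0.20), *Kcnk7* (0.339 ± 0.17) and *Kcnk4* (0.153 ± 0.043) were lower, and *Kcnk12* (0.0117 ± 0.017) and *Kcnk18* (0.0105 ± 0.014) were at the level of single reads. In FPKM, *Kcnk18* was thus the lowest of the 10 channels in the mean over mice, together with *Kcnk12*.

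**Figure D1:**
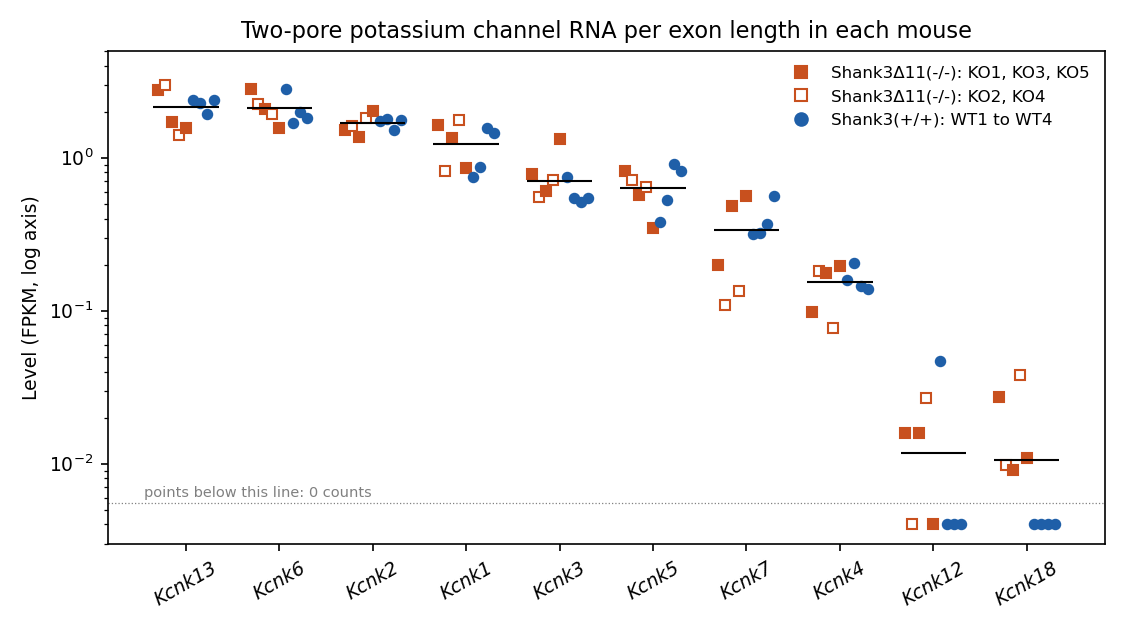
Level of each channel per exon length (FPKM, log axis) in each of the 9 mice, ordered by the mean over mice (bars). *Kcnk13*, *Kcnk6*, *Kcnk2* and *Kcnk1* lie above 0.70 FPKM in every mouse, whereas *Kcnk12* and *Kcnk18* stay below 0.05 FPKM and fall to 0 counts in 5 and 4 mice.

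Most neighbours in this order could not be separated. Within each mouse the FPKM of a gene was compared with that of the next, in a 2-sided exact sign-flip permutation test over the 9 mice with Benjamini-Hochberg adjustment over the 9 neighbour pairs. The order itself was taken from the same values. The step from *Kcnk4* to *Kcnk12* passed: *Kcnk4* was higher in 9 of 9 mice, with 0 reads of *Kcnk12* in 5 of them (exact p = 0.00391, the smallest this test can give; adjusted p = 0.0352). The other 8 steps did not, with adjusted exact p between 0.0527 and 1. *Kcnk13* exceeded *Kcnk6* in 4 of 9 mice (ratio 1.01, adjusted exact p = 0.945), and *Kcnk3* exceeded *Kcnk5* in 5 of 9 (ratio 1.11, adjusted exact p = 0.819). When the longest transcript was used as the length in place of all exons, *Kcnk2* moved from the third place to the first.

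The total of the family varied little. Summed over the 10 channels, the level was 38.3, 34.1, 29.7, 31.1 and 31.5 CPM in KO1 to KO5 and 34.8, 30.3, 31.6 and 33.5 CPM in WT1 to WT4. The groups overlapped, with KO1 highest and KO3 lowest. *Kcnk2*, *Kcnk6* and *Kcnk13* together made up 67.8% (KO5) to 79.2% (WT1) of this sum of CPM.

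Between genotypes, no channel was called. A call required p below 0.05 with a false discovery rate (FDR) below 25% in edgeR's quasi-likelihood test with Benjamini-Hochberg adjustment over all genes. Of the 8 channels that passed the filter on low counts, 4 were higher and 4 lower in *Shank3Δ11(-/-)*, 1 (*Kcnk3*) had an unadjusted p below 0.05, and 0 were called. Over all 21809 genes tested, 453 (2.08%) had p below 0.05 and 0 were called, which is the background for the single channel of 8. DESeq2 gave 393 genes with p below 0.05 and called 6 (0.0275%), of which 0 were K2P channels. The median log2 fold change of the 8 channels was -0.01, as over all genes tested (-0.01), and the median size of the change was 0.11 against 0.10.

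With all 9 mice, 3 of the 8 channels were higher, 5 were lower and 0 had p below 0.05, against 442 of 21735 genes (2.03%). The median log2 fold change of the channels was then -0.06. None of the 8 measurable channels had *Shank3Δ11(-/-)* and *Shank3(+/+)* mice that did not overlap, for 3 or for 5 mice; over all genes tested, 298 (1.37%) lay wholly higher and 328 (1.5%) wholly lower in the 3 mice, and 70 (0.322%) and 79 (0.363%) in the 5.

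**Figure D2:**
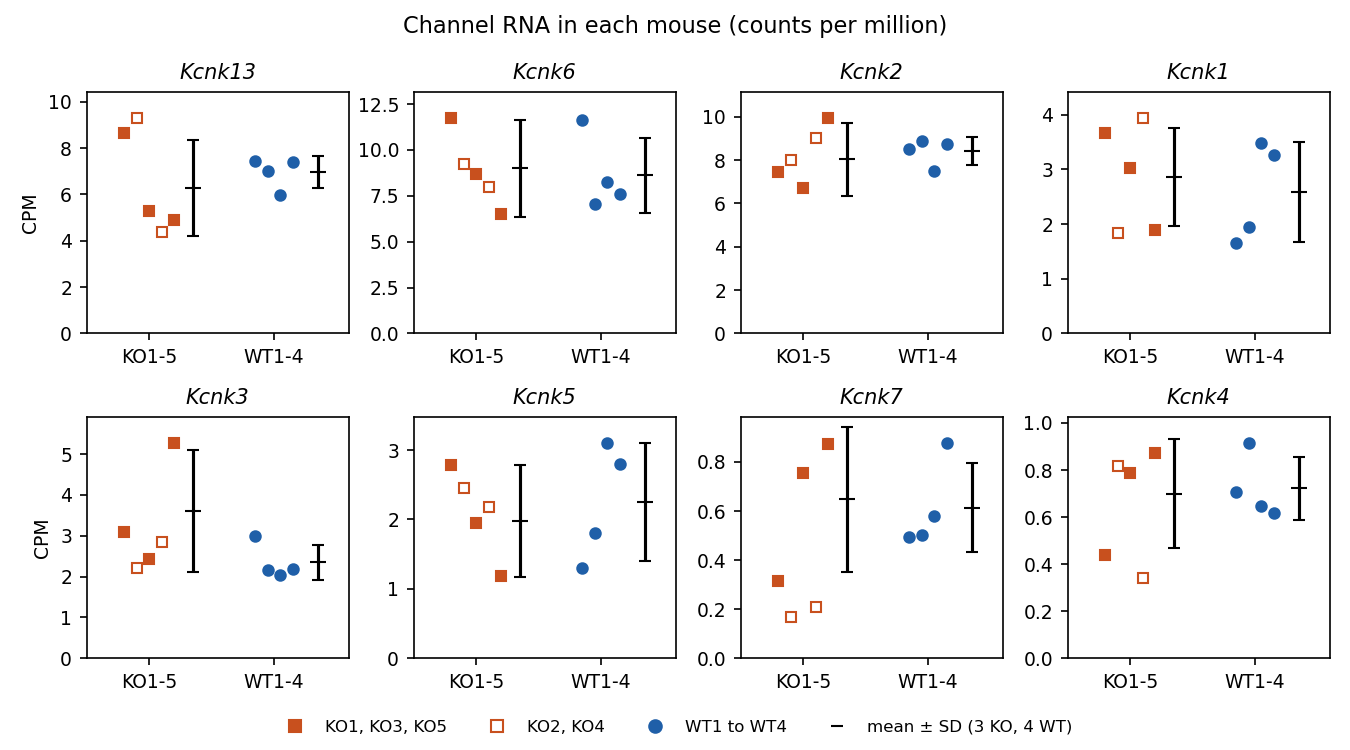
Level of the 8 measurable channels (CPM, linear axes starting at 0) in each *Shank3Δ11(-/-)* mouse (squares; open for KO2 and KO4) and each *Shank3(+/+)* mouse (circles), in the order of the mouse numbers, with mean ± SD of KO1, KO3 and KO5 and of the 4 *Shank3(+/+)* mice. In all 8 panels the groups overlap, and in the *Kcnk3* panel KO5 stands apart at 5.28 CPM.

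The TWIK group was represented by *Kcnk1*, *Kcnk6* and *Kcnk7*. *Kcnk1* encodes TWIK-1, a weakly conducting channel that resides largely in recycling endosomes. Its level was 3.67, 1.83, 3.02, 3.94 and 1.90 CPM in KO1 to KO5 and 1.66, 1.95, 3.48 and 3.26 CPM in WT1 to WT4. The mice fell into a low set (KO2, KO5, WT1, WT2, all below 2 CPM) and a high set (the other 5, all above 3 CPM), each holding mice of both genotypes. Its log2 fold change was 0.14 ± 0.31 (SE; edgeR p = 0.656, exact permutation p = 0.743) for 3 against 4 mice and 0.16 for 5 against 4. *Kcnk1* shares 179 bases of exon with *Gm45875*, an antisense RNA at 0.0887 to 0.447 CPM.

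*Kcnk6*, which encodes TWIK-2, a channel of endosomes and lysosomes that is also found in vascular smooth muscle and macrophages, had the highest level in CPM of the family, 8.74 ± 1.85 (SD, n = 9). The gene lies on chromosome 7 (mm10, 29221926 to 29232515, minus strand). It was at 11.8, 9.24, 8.69, 7.97 and 6.53 CPM in KO1 to KO5 and at 11.6, 7.04, 8.26 and 7.58 CPM in WT1 to WT4. One mouse of each genotype, KO1 and WT1, was above the rest, and KO5 was lowest. The log2 fold change was 0.05 ± 0.23 (SE; edgeR p = 0.814, exact permutation p = 0.857) for 3 against 4 mice and 0.04 ± 0.19 for 5 against 4.

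*Kcnk7*, whose protein is not known to give a current of its own, was covered by 5 to 27 reads per mouse. Its level was 0.313, 0.170, 0.756, 0.210 and 0.874 CPM in KO1 to KO5 and 0.493, 0.503, 0.581 and 0.879 CPM in WT1 to WT4. It varied most among the 8 measurable channels, with a coefficient of variation of 50.5%, and the 3 lowest mice were KO1, KO2 and KO4. Mice of high Y-linked RNA (KO1, KO2, KO4, WT1 and WT2) were at 0.170 to 0.503 CPM. Those of low Y-linked RNA were at 0.581 to 0.879 CPM. For 3 against 4 mice the log2 fold change was 0.06 ± 0.39 (SE; edgeR p = 0.883, exact permutation p = 0.943). With KO2 and KO4, both of high Y-linked RNA, it changed sign, to -0.42 ± 0.46 (SE; edgeR p = 0.373, exact permutation p = 0.286). The difference in mean log2 CPM was -0.57 for KO1 against WT1 and WT2, and -0.96 with KO2 and KO4 added. For KO3 and KO5 against WT3 and WT4 it was 0.17. The part of Y-linked status in these values was not tested.

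Of the stretch-gated group, *Kcnk2* (TREK-1), which is opened by stretch, heat and polyunsaturated fatty acids, was the steadiest channel, with a coefficient of variation of 11.9% over the 9 mice. It was at 7.46, 8.02, 6.71, 9.04 and 9.95 CPM in KO1 to KO5 and at 8.53, 8.90, 7.51 and 8.76 CPM in WT1 to WT4. The highest and the lowest mouse, KO5 and KO3, were both *Shank3Δ11(-/-)*, so the *Shank3(+/+)* range lay within that of the other group. *Kcnk2* had a log2 fold change of -0.08 ± 0.17 (SE; edgeR p = 0.653, exact permutation p = 0.543) for 3 against 4 mice and -0.03 ± 0.14 for 5 against 4. An antisense RNA, *A430027H14Rik* at 0.125 to 0.920 CPM, shares 604 bases of its exons with *Kcnk2*.

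*Kcnk4* encodes TRAAK, a mechanosensitive channel known mainly from neurons and nodes of Ranvier. It rested on 13 to 31 reads per mouse, at 0.439, 0.815, 0.787, 0.342 and 0.874 CPM in KO1 to KO5 and 0.708, 0.916, 0.649 and 0.619 CPM in WT1 to WT4. KO1 and KO4 were lowest and WT2 was highest. The log2 fold change was -0.07 ± 0.32 (SE; edgeR p = 0.841, exact permutation p = 0.800) for 3 against 4 mice and -0.17 ± 0.31 for 5 against 4. On the same strand, *Kcnk4* shares 587 bases of exon with *Catsperz*, a sperm calcium channel gene that was listed at 0.177 to 0.462 CPM, and reads of the shared stretch cannot be assigned to one of these genes.

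Of the pH-sensitive channels, *Kcnk3* encodes TASK-1, which is closed by extracellular acid and is known from pulmonary artery smooth muscle, carotid body cells and brown fat. It lies on chromosome 5 (mm10, 30588170 to 30625271, plus strand) and shares 229 bases of exon with *Gm9899*, an opposite-strand transcript at 0.148 to 0.282 CPM. Its level was 3.10, 2.21, 2.42, 2.84 and 5.28 CPM in KO1 to KO5 and 2.99, 2.16, 2.05 and 2.18 CPM in WT1 to WT4. KO5 was above all other mice, while the remaining 4 *Shank3Δ11(-/-)* mice, at 2.21 to 3.10 CPM, overlapped with the *Shank3(+/+)* mice. The log2 fold change was 0.61 ± 0.27 (SE; edgeR p = 0.0487, FDR = 1.00; exact permutation p = 0.0857) for 3 against 4 mice. With KO2 and KO4 it was 0.43 ± 0.25 (edgeR p = 0.114, exact permutation p = 0.190).

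The *Kcnk3* difference rested on KO5. Without this mouse the log2 fold change was 0.23 and its unadjusted p in edgeR was above 0.05. It was also above 0.05 when WT2, WT3 or WT4 was left out, at log2 fold changes of 0.57, 0.55 and 0.58. Over 18 alternative fits the value ranged from 0.14 to 0.83, with an unadjusted p below 0.05 in 8 of them and the lowest FDR at 0.998. Within the mice of high Y-linked RNA (KO1 against WT1 and WT2) the difference in mean log2 CPM was 0.28, and within those of low Y-linked RNA (KO3 and KO5 against WT3 and WT4) it was 0.74. With KO2 and KO4 added, the former was 0.08.

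KO5 also stood apart in cell type markers. Summed over 8 adipocyte genes, its level was 1179 CPM, against 189 to 409 CPM in the other 8 mice. All 8 of these genes were highest in KO5. Among them *Adipoq*, the hormone adiponectin, was at 78.7 CPM in KO5 and at most 9.02 CPM elsewhere. For 3 against 4 mice, 5 of the 5 that were tested had p below 0.05 in edgeR, all higher in *Shank3Δ11(-/-)*, beside 2.08% of all genes. KO1 had 9.02 CPM of *Adipoq*, but KO3, at 0.157 CPM, lay within the *Shank3(+/+)* range of 0.0296 to 1.71 CPM. The 8 Schwann cell genes summed to 798 CPM in KO5 and to 409 to 543 CPM in the others, with 3 of the 8 highest in KO5. In the same fit 3 of these 8 had p below 0.05, all higher in *Shank3Δ11(-/-)*. The 8 genes of smooth muscle and pericytes summed to 1063 CPM in KO5 and to 841 to 964 CPM in the others, and 0 had p below 0.05. Of these, 4 were highest in KO5 and *Cspg4*, a pericyte proteoglycan, was lowest there (57.0 CPM, against 70.9 to 79.8 CPM). The sum of the 8 brown adipocyte genes did not single out KO5 (185 CPM, within a range of 160 to 207 CPM). Most of this sum in KO5 came from *Cpt1b* (89.8 CPM) and *Cox8b* (59.1 CPM), so it says little of the other genes. *Ucp1*, the defining gene of the list, was at 0 to 0.126 CPM. The part of these cells in the *Kcnk3* level of KO5 was not tested.

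**Figure D3:**
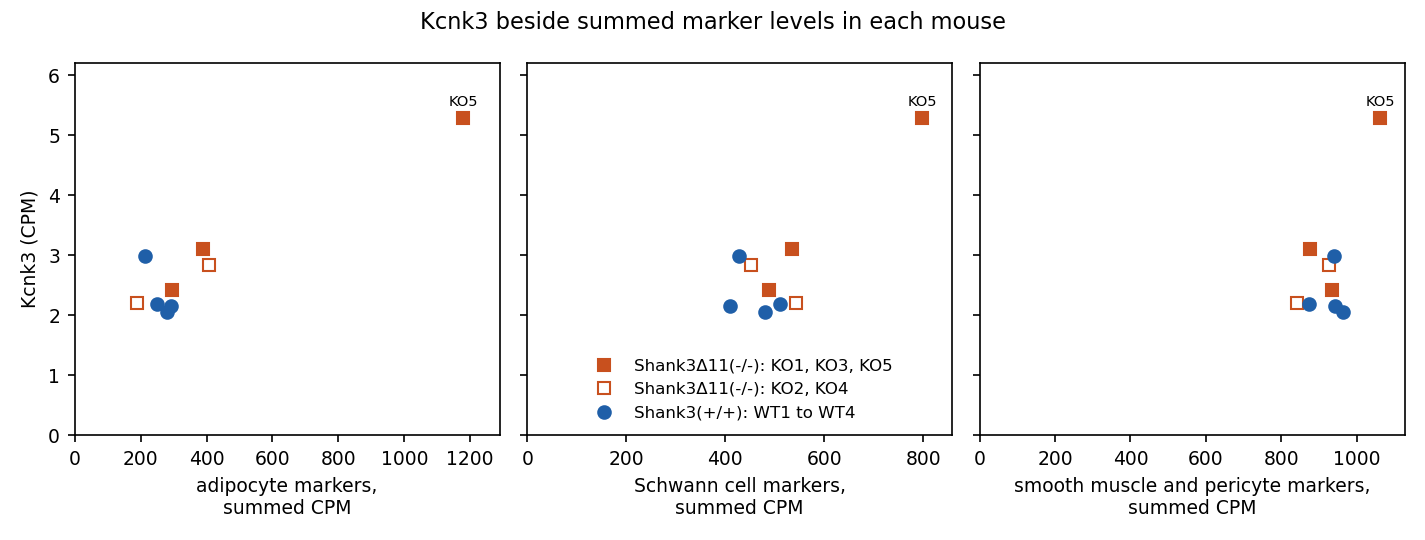
*Kcnk3* level (CPM) against the summed level (CPM) of 8 adipocyte, 8 Schwann cell and 8 smooth muscle and pericyte markers, 1 point per mouse, with only KO5 named. In each panel KO5 is highest on both axes, and the other 8 mice lie between 2.05 and 3.10 CPM of *Kcnk3*.

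*Kcnk5* encodes TASK-2, a channel opened by extracellular alkali and known from kidney and cartilage. Its level was 2.79, 2.45, 1.95, 2.18 and 1.18 CPM in KO1 to KO5 and 1.29, 1.80, 3.11 and 2.80 CPM in WT1 to WT4. As with *Kcnk1*, KO5, WT1 and WT2 were low and WT3 and WT4 high. For 3 against 4 mice the fold change on the log2 scale was -0.19 ± 0.36 (SE; edgeR p = 0.604, exact permutation p = 0.600), and for 5 against 4 it was -0.09 ± 0.29. The difference in mean log2 CPM had opposite signs in the sets of mice defined by Y-linked RNA: 0.84 for KO1 against WT1 and WT2 and -0.93 for KO3 and KO5 against WT3 and WT4. For *Kcnk1* the same 2 comparisons gave 1.00 and -0.48. With 1 against 2 and 2 against 2 mice, neither these values nor the difference between them was tested.

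Of the THIK group, *Kcnk13* was among the highest channels per length and *Kcnk12* was near 0. *Kcnk13* encodes THIK-1, the main potassium leak channel of microglia, and lies on chromosome 12 (mm10, 99964499 to 100062682, plus strand) with no exon shared with another gene. It was at 8.65, 9.31, 5.29, 4.36 and 4.90 CPM in KO1 to KO5 and at 7.45, 7.04, 5.98 and 7.39 CPM in WT1 to WT4. The *Shank3Δ11(-/-)* mice split to both sides of the *Shank3(+/+)* range, KO1 and KO2 above it and KO3, KO4 and KO5 below. The log2 fold change was -0.16 ± 0.21 (SE; edgeR p = 0.470, exact permutation p = 0.429) for 3 against 4 mice and -0.10 ± 0.22 for 5 against 4. Without KO1 it was -0.46, with an unadjusted p below 0.05 and an FDR of 1.00 in edgeR. KO1 also had the highest sum of 5 erythroid markers, 3374 CPM against 704 to 1287 CPM, while KO2, highest in *Kcnk13*, was at 739 CPM. The part of erythroid cells was not tested. The 8 macrophage markers summed to 173 to 255 CPM, and KO4, lowest in *Kcnk13*, had the highest sum.

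*Kcnk12* encodes THIK-2, a close relative of THIK-1 that is largely held inside the cell. It had 1, 0, 1, 2 and 0 reads in KO1 to KO5 and 3, 0, 0 and 0 in WT1 to WT4. A read was thus present in 4 of the 9 mice, of both genotypes, and the mouse with most reads was WT1. Pooled, this is 4 reads among 159467187 (0.0251 CPM, exact Poisson 95% interval 0.00683 to 0.0642) in 5 *Shank3Δ11(-/-)* mice and 3 reads among 125192132 (0.0240 CPM, 0.00494 to 0.0700) in *Shank3(+/+)* mice. These intervals cover counting error only. The gene did not pass the filter and no difference was detectable at this depth (exact permutation p = 1 for 3 against 4 mice and 0.841 for 5 against 4).

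**Figure D4:**
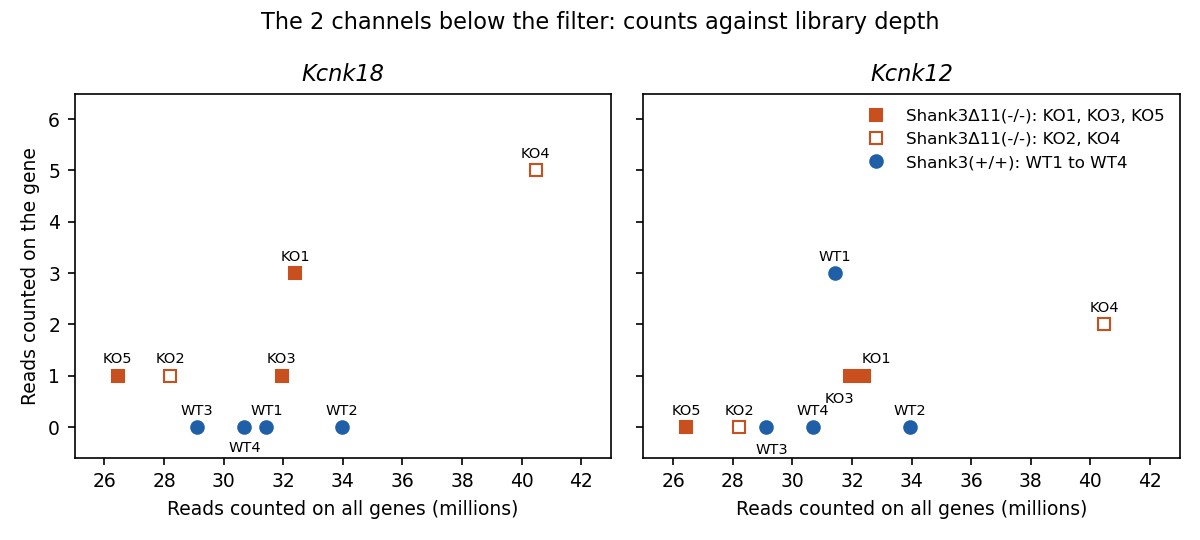
Reads counted on *Kcnk18* and on *Kcnk12* in each mouse against the reads counted on all genes. *Kcnk18* has 1 to 5 reads in each *Shank3Δ11(-/-)* mouse and 0 in each *Shank3(+/+)* mouse, and the mouse with most reads, KO4, is the deepest library.

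*Kcnk18*, the calcineurin-activated channel TRESK that is known mainly from sensory neurons, had reads in *Shank3Δ11(-/-)* mice only. There were 3, 1, 1, 5 and 1 reads in KO1 to KO5 and 0 in each of WT1 to WT4. On the TMM-scaled level this is 0.0940, 0.0340, 0.0315, 0.131 and 0.0380 CPM in KO1 to KO5. The groups did not overlap with 3 or with 5 *Shank3Δ11(-/-)* mice, but 3 of the 5 mice rested on a single read each and the most reads fell to KO4, the deepest library.

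Pooled over libraries, KO1, KO3 and KO5 held 5 *Kcnk18* reads among 90783289, or 0.0551 CPM (exact Poisson 95% interval 0.0179 to 0.129), and all 5 *Shank3Δ11(-/-)* mice held 11 among 159467187, or 0.0690 CPM (0.0344 to 0.123). The 4 *Shank3(+/+)* mice held 0 among 125192132, which allows a level of up to 0.0240 CPM (3 counts over the group). For the 3 mice the counting interval reached below this limit, so at this depth their *Kcnk18* level cannot be placed above it. For the 5 mice the interval lay above the limit and above 0.0295 CPM, the upper end of the exact Poisson 95% interval of the *Shank3(+/+)* mice. This rested on single mice: without KO4, 6 reads among 118995230 were left (0.0504 CPM, 0.0185 to 0.110) and the interval reached below both values, and without KO1, 8 reads were left (0.0630 CPM, 0.0272 to 0.124) and it reached below 0.0295 CPM. Without KO1, in the comparison of 3 mice, 2 reads were left in KO3 and KO5 (0.0343 CPM, 0.00415 to 0.124). Because reads are pooled here, these intervals leave out the spread between mice and are no test of genotype.

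The exact permutation p of the difference in mean log2 CPM of *Kcnk18* was 0.0286 for 3 against 4 and 0.00794 for 5 against 4 mice, in both cases the smallest the number of splits allows. As the study picked *Kcnk18* from these same libraries, these values are not independent evidence of a difference. *Kcnk18* did not pass the filter on low counts. In edgeR without the filter its unadjusted p was 0.0192 and its FDR over 37614 genes was 0.998. Among those genes with a count in the 7 mice, 41 (0.109%) had a read in each of KO1, KO3 and KO5 and 0 in every *Shank3(+/+)* mouse, and 46 (0.122%) had the reverse. With all 9 mice the numbers were 11 (0.0285%) and 13 (0.0336%) of 38635 genes. Of the 15805 genes with a count that failed the filter, 333 (2.11%) lay wholly higher and 199 (1.26%) wholly lower in the 3 mice, and of 16900 such genes 73 (0.432%) and 67 (0.396%) did in the 5.

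The 9 neuron markers summed to 8.55, 9.96, 11.3, 11.6 and 12.2 CPM in KO1 to KO5 and to 10.01, 10.5, 10.01 and 11.1 CPM in WT1 to WT4. The groups overlapped, and the part of nerve RNA in the *Kcnk18* reads was not tested. *Kcnk18* has a single annotated transcript of 3 exons on chromosome 19 (mm10, 59219214 to 59237374, plus strand), and shares no exon sequence with another annotated gene.

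**Figure D5:**
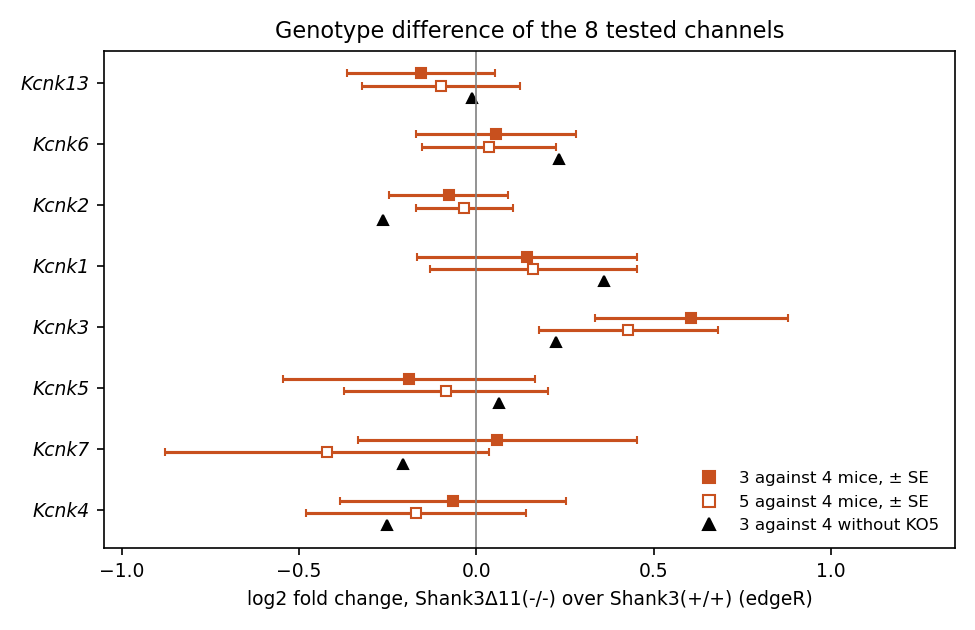
log2 fold change of each of the 8 tested channels in edgeR, for 3 against 4 mice (filled squares, ± SE), for 5 against 4 (open squares, ± SE) and for 3 against 4 without KO5 (triangles). The *Kcnk3* value drops from 0.61 to 0.23 without KO5, and the other 7 channels lie within 0.5 of 0 in all 3 fits.

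The other K2P genes of the table were low. Of 4 further K2P genes, *Kcnk10* (TREK-2) had 73 reads over the 9 mice, *Kcnk9* (TASK-3) had 7, *Kcnk15* had 3, all of them in KO4, and *Kcnk16* was at 0 in every mouse. *Kcnk10*, at 6, 8, 6, 1 and 10 reads in KO1 to KO5 and 7 to 14 in *Shank3(+/+)*, was the only one tested for 3 against 4 mice, with a log2 fold change of -0.42 ± 0.42 (SE; edgeR p = 0.345, exact permutation p = 0.286), and with 9 mice it did not pass the filter (exact permutation p = 0.167).

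Proteins that bind, modify or move K2P channels were all measurable. Of 18 such genes, all tested, 10 were higher and 8 lower in *Shank3Δ11(-/-)* and 0 had p below 0.05 in edgeR, beside 2.08% of all genes, with log2 fold changes from -0.40 to 0.39. With 9 mice, 12 were higher, 6 were lower and again 0 had p below 0.05, beside 2.03% of all genes. The highest per length were *S100a10* (137 FPKM), the annexin partner p11 that binds TASK-1 and TREK-1, *Ywhab* (65.9 FPKM), a phosphoserine-binding adaptor, and *Ppp3r1* (44.6 FPKM), the regulatory subunit of calcineurin. Their log2 fold changes were 0.06 ± 0.12, 0.04 ± 0.11 and -0.02 ± 0.12 (SE), with exact permutation p of 0.657, 0.800 and 0.829, and with 9 mice they were 0.11, 0.03 and -0.04.

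The inward rectifiers, the other potassium channels of the resting membrane, are a separate family, and its highest members stood above the K2P channels in FPKM. Of 15 listed genes 8 passed the filter, of which 5 were higher and 3 lower in *Shank3Δ11(-/-)*, 1 had p below 0.05 and 0 were called, beside 2.08% of all genes with p below 0.05. With 9 mice 7 passed the filter, of which 5 were higher, 2 were lower and 0 had p below 0.05, beside 2.03% of all genes. *Kcnj11* (9.04 FPKM), the pore of the muscle ATP-sensitive channel, had a log2 fold change of 0.00 ± 0.11 (SE; edgeR p = 0.969, exact permutation p = 0.971). *Kcnj8* (7.71 FPKM), the pore of the vascular ATP-sensitive channel, was at 0.44 ± 0.21 (SE; edgeR p = 0.0606, exact permutation p = 0.171) and *Kcnj12* (4.21 FPKM), a classical strong inward rectifier, at -0.41 ± 0.27 (SE; edgeR p = 0.155, exact permutation p = 0.286). With 9 mice the log2 fold changes of *Kcnj11*, *Kcnj8* and *Kcnj12* were 0.01, 0.32 and -0.31. *Kcnj10*, a rectifier of glial cells, was the gene below 0.05, at 5.42, 4.86, 2.58, 1.76 and 6.61 CPM in KO1 to KO5 and 3.79, 2.51, 3.04 and 2.70 CPM in WT1 to WT4. KO5 was again highest and the groups overlapped. *Kcnj10* differed by 0.68 ± 0.29 (SE) on the log2 scale for 3 against 4 mice (edgeR p = 0.0386, FDR = 1.00; exact permutation p = 0.229) and by 0.49 with 9 (edgeR p = 0.165, exact permutation p = 0.421).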

How the data were processed

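The members and gene lists were chosen with earlier results of these data known. The values are counts as deposited: the authors mapped reads to mm10 with HISAT2, kept concordantly mapped reads and counted them per Ensembl gene with featureCounts, without normalization. For strandedness and for multiply mapped reads the setting is not given in the sources used here. All 9 count columns were used. The main fit was edgeR 4.0.16 in R 4.3.3 (TMM, filterByExpr with a minimum count of 10 and a minimum total of 15, robust quasi-likelihood test) for 3 against 4 mice, since the study excluded KO2 and KO4. P-values were adjusted by Benjamini-Hochberg over all genes tested. Printed CPM used TMM factors of the 9 mice; pooled CPM of *Kcnk12* and *Kcnk18* used plain library totals. FPKM used the union of exons in GENCODE M21, which gave a symbol and position for 55144 of 55471 identifiers. Exact permutation tests were 2-sided, over all 35 or 126 splits of the mice, on log2 CPM with a prior count of 2, except the sign-flip test of neighbouring levels, which used log2 FPKM with 0.01 added. Nothing says more of the replicates than 1 mouse each. Limits for 0 reads use 3 counts and cover counting error only. The fit was tested on simulated data with known changes. Alternatives were all 9 mice, no filter, at least 10 counts in every mouse, other scalings, DESeq2 1.42.0, limma-voom (limma 3.58.1), a replicate block, a Y-linked term and each mouse left out in turn. Genes named outside the 10 members were, per list of K2P regulators and inward rectifiers, those with p below 0.05 and the 3 of highest mean FPKM. For the 2 highest members, the 3 genes of highest correlation were named. All 4 other K2P genes, *Shank3* and the genes that share exon sequence with a member were named too. The cell type markers *Adipoq*, *Ucp1*, *Cspg4*, *Myh3*, *Mb*, *Cpt1b* and *Cox8b* were named after their values were seen, and *Chat* as a marker at 0. Figures were drawn with matplotlib 3.10.9.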

Additional observations from a re-analysis of the deposited data

Results flagged for a closer look

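*Kcnk3* in the *Shank3(+/+)* mice stood out because 1 mouse lay far from the other 3. WT1 was at 2.99 CPM and the next mouse at 2.18 CPM, a gap of 0.859 of the range of the group, above Dixon's 95% critical value of 0.829 for 4 mice. *Kcnk12* in *Shank3(+/+)* stood out by the same measure, with 0.0924 CPM in WT1 and 0 in the other 3 mice, a gap of 1 of the range that rests on 3 reads. For continuous values such a gap arises by chance in about 1 of 20 groups, and 19 groups were examined (10 channels in 2 genotypes, without *Kcnk18* in *Shank3(+/+)*, which is at 0 throughout). This rate does not apply to *Kcnk12*, since reads in a single mouse of a group always give a gap of 1. Without WT1 the *Kcnk3* log2 fold change was 0.75 (FDR = 1.00 in edgeR), and without KO5 it was 0.23 (FDR = 1.00).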

How the results depend on the processing

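The count of 1 channel with p below 0.05 was 0 with all 9 mice, with library size only, in limma-voom, with the Y-linked term and with either replicate block, and 2 with no filter (*Kcnk3* and *Kcnk18*). The count of genes with p below 0.05 was 972 with no filter and 844 with the replicate block for 7 mice. With single mice left out, genes with p below 0.05 ranged from 224 (without KO5) to 968 (without KO1), channels with p below 0.05 from 0 to 2, and channels higher in *Shank3Δ11(-/-)* from 2 to 5. The *Kcnk7* log2 fold change turned to -0.42 with all 9 mice, -0.030 in limma-voom, -0.13 with the Y-linked term, -0.064 with the replicate block for 7 mice and -0.87 with that for 9. The block turned *Kcnk5* to 0.18 (7 mice) and 0.11 (9 mice) and *Kcnk13* to 0.025 (7 mice). Leaving out single mice gave ranges of -0.073 to 0.36 for *Kcnk1*, -0.26 to 0.037 for *Kcnk2*, -0.25 to 0.19 for *Kcnk4*, -0.52 to 0.065 for *Kcnk5*, -0.18 to 0.23 for *Kcnk6* and -0.21 to 0.40 for *Kcnk7*; the cause was not tested. Whether the replicate numbers pair the mice could not be settled: deviations of same-numbered mice correlated at 0.37, 0.05, 0.36 and 0.10, so not every pair exceeded 0.1, while 3 of 4 *Shank3Δ11(-/-)* and 2 of 4 *Shank3(+/+)* mice correlated best with their own number. With the replicate block the *Kcnk3* value was 0.14 (7 mice) and 0.18 (9 mice). *Kcnk3* stayed positive in all 18 alternatives. The median log2 fold change of the channels ranged from -0.09 to 0.03. The order of levels kept 8 of its 9 neighbour steps in each of 2 alternatives: *Kcnk2* came first with the longest transcript as length, and *Kcnk5* came above *Kcnk3* in *Shank3(+/+)* mice alone. *Kcnk18*, *Kcnk12* and the further K2P genes are limited by depth. The pooled *Kcnk18* level over the *Shank3(+/+)* limit, a ratio that leaves out the counting error of the reads, was 2.30 for 3 mice, 2.88 with all 9 mice and 1.67 to 2.84 with single mice other than KO1 left out of the 7. Of these *Kcnk18* values, all but the first, and the intervals without KO4 or KO1, were chosen after seeing the data.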

Other observations

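For the 2 channels of highest mean FPKM, the genes whose pattern over the mice was most alike were sought among the 21735 genes tested in 9 mice, by Pearson r of log2 CPM over 9 libraries that share their depth and composition between genes. For *Kcnk13* these were *Rnf41* (r = 0.99), a ubiquitin ligase at 14.7 to 24.7 CPM, the antisense RNA *Gm17201* (r = 0.99) and the transcript *A230103J11Rik* (r = 0.97), and 115 genes exceeded 0.9. For *Kcnk6* they were *Zfp87* (r = 0.95), *Crispld1* (r = 0.93) and *Gosr1* (r = 0.92), and 4 genes exceeded 0.9. These are descriptions of 9 mice and carry no test.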
